A study of Mus musculus with 58 samples.

Results

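Genes of the indirect-pathway spiny projection neurons of the striatum were followed through every count table of the series. The list, chosen by name as genes of the dopamine D2 type of these neurons, holds 8 genes: Drd2, Penk, Adora2a, Gpr6, Gpr52, Sp9, Grik3 and Ptprm. An identifier was matched for 7 of the 8 among the 54532 genes of the RNA-seq tables and the 18411 genes of the lysate RNA and ribosome footprint tables, and Gpr52 was not analysed here. These 7 genes passed the filter on low counts in each of the 17 comparisons. On GRCm38, Drd2 lies at chr9:49340360-49408177, Penk at chr4:4133536-4138815, Adora2a at chr10:75316877-75334792, Gpr6 at chr10:41069977-41072290, Sp9 at chr2:73271926-73275771, Grik3 at chr4:125490259-125714173 and Ptprm at chr17:66666848-67354491. Gm46111, a noncoding gene, overlaps Drd2, and noncoding genes, pseudogenes or miRNAs lie within Grik3 and Ptprm; the strand setting of the counting is not given in the sources used here, so their reads cannot be told apart. Of 6 neighbouring or overlapping genes with counts, 0 were called in any comparison.

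RNA-seq was done on the bilaterally dissected striatum of adult mice of 2 lines, 32 libraries in all: each line gave 4 libraries for each genotype (del/+ or wt) in each sex. In the 3g line, del/+ mice carry CRISPR/Cas9-made premature stop codons in 1 copy each of Taok2, Sez6l2 and Mvp; the 16p11.2 line carries a hemizygous deletion of the whole 16p11.2 interval, which includes these genes. Controls were wt littermates, and the labels give the strain B6129S for every library, whereas the methods name C57BL/6J for the 3g line. Lysate RNA and ribosome footprints came from the striatum of other males: 3 del/+ and 3 wt animals of the 3g line, and 3 del/+ and 4 wt animals of the 16p11.2 line, with a lysate RNA and a footprint library matched by the animal number in the labels.

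The striatum sends its output through a pair of projection neuron types of similar number. Neurons of the indirect pathway carry the dopamine D2 receptor, which couples to Gi and lowers cAMP, and the adenosine A2A receptor, which couples to Golf and raises it; they release enkephalin cut from the Penk precursor and act as a brake on movement. Neurons of the direct pathway carry the D1 receptor, dynorphin and substance P instead. Whole striatum was sequenced, so fewer cells of a type and less RNA per cell cannot be told apart in any value below.

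The promoters of members whose RNA levels moved together from library to library (Drd2, Gpr6 and Sp9), and of 1 member that did not move with them (Ptprm), are shown here so that a reader can compare them. Each window runs from 250 bases before to 50 bases after the annotated start, from RefSeq on GRCm38.p6, written 5′ to 3′ along the gene. For Drd2, Grik3 and Ptprm the start used lies inside the gene bounds given above, and for Gpr6 and Sp9 it meets them. Windows were found for 5 of the 8 genes. Capitals mark the core of the cAMP response element (TGACG, or CGTCA on the other strand) and the GC box (GGGCGG, or CCGCCC on the other strand), the letters read by Sp-family zinc finger proteins.
Drd2, chr9:49340153-49340452 (plus strand): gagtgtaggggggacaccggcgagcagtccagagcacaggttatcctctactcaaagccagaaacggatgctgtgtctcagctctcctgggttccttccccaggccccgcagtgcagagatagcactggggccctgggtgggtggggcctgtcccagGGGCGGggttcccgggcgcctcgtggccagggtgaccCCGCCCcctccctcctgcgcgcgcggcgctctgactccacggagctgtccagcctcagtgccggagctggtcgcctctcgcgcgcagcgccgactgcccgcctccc
Gpr6, chr10:41072241-41072540 (minus strand): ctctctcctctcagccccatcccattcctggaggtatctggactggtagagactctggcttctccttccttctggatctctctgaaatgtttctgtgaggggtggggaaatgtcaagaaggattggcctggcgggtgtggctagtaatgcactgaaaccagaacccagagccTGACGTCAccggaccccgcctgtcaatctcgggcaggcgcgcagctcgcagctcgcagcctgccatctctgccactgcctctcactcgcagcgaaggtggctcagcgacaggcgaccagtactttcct
Sp9, chr2:73271676-73271975 (plus strand): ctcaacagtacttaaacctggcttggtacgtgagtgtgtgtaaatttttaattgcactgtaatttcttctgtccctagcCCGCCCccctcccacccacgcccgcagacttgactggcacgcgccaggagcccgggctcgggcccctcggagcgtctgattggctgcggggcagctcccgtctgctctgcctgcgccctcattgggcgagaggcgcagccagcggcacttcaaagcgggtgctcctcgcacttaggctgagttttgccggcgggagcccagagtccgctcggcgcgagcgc
Ptprm, chr17:67354410-67354709 (minus strand): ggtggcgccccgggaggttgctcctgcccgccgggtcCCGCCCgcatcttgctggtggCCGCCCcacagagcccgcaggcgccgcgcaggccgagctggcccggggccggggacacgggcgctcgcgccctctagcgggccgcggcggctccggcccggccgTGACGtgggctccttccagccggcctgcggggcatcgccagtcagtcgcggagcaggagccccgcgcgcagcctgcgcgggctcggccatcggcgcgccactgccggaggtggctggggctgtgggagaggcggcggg

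The Gpr6 window holds 1 copy of the full palindrome TGACGTCA, whose first base lies 78 bases before the start; it counts as 2 overlapping cores. Ptprm holds 1 core, and the windows of Drd2, Sp9 and Grik3 hold 0. Over all 32851 promoter windows of the same length, 20.8% hold the core on either strand and 1.79% hold the palindrome. GC boxes number 2 in Drd2, 1 in Sp9, 2 in Ptprm, 7 in Grik3 and 0 in Gpr6, against 35.7% of all windows with at least 1. The CCAAT letters (CCAAT or ATTGG) were found 2 times in Sp9 and 1 time in Gpr6, and a TATA box (TATAAA or TTTATA) 0 times in the 5 windows, against 37.4% and 13.6% of all windows. A match is a description of letters and not a site shown to be bound.

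Library totals were between 11711099 and 65529807 counts in RNA-seq of the 3g line, between 26592767 and 41300015 in RNA-seq of the 16p11.2 line, between 15102576 and 19122488 in lysate RNA and between 342052 and 678130 in footprints. The targeted genes were first checked. In the 3g line, over both sexes, Sez6l2 fell by 0.53 on the log2 scale (adjusted p = 3.05e-05, by quasi-likelihood in edgeR with the Benjamini-Hochberg method), Mvp was at -0.43 (adjusted p = 0.0996, edgeR) and Taok2 at -0.02 (adjusted p = 0.938, edgeR). In the 16p11.2 line Taok2, Sez6l2 and Mvp were at -1.02, -1.21 and -1.04. Across the 32 RNA-seq libraries, 3 stood apart. The library labelled 3g wt male 17 correlated better with the 16p11.2 libraries (mean r = 0.993 across 20342 genes) than with its own line (0.984), and the library labelled 16p11.2 del/+ male 4 better with the 3g libraries (0.991) than with its own (0.981). In the library labelled 16p11.2 del/+ female 1, Xist was at 0.462 CPM, against 326 to 916 in the other females of its line, and the Y-linked Ddx3y was at 38.5 CPM. Levels of Taok2, Sez6l2 and Mvp matched the labelled genotype in the libraries labelled 16p11.2 del/+ male 4 and del/+ female 1. In the library labelled 3g wt male 17, Sez6l2 was at 113% of the wt mean, against 63.7 to 76.0% in del/+. Its Mvp, at 87.8%, lay within the del/+ range of 63.1 to 90.8%, and Taok2 was not called by genotype in this line. In the 3g females every del/+ library was shallower (24332636 to 36821127 counts) than every wt library (42289823 to 65529807). Where leaving out the libraries that stood apart moved the fold change of a member described below by over 1.5 times or turned its sign, the value without them is given beside it or elsewhere in the text.

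Levels are CPM, the reads of a gene scaled to a common library size, after TMM normalisation over all libraries of an assay. Over the 16 RNA-seq libraries of a line, Drd2 lay between 259 and 370.5 CPM in 3g (median 291) and between 225 and 426 in 16p11.2 (median 331). Penk lay between 1104 and 1447 CPM in 3g and between 876 and 1625 in 16p11.2, and Adora2a between 311 and 451 and between 252 and 651. Exon lengths were not used here, so levels are not ranked between genes. The lowest count of any member in any RNA-seq library was 159 reads, for Sp9. The lists of other cell types show what else the tissue held: cortical projection neuron markers summed to between 35.7 and 907 CPM in the 3g libraries and to between 751 and 1315 CPM in the 16p11.2 libraries, and none of the 6 was at 0 in any RNA-seq library. Line and library preparation cannot be told apart, so levels are compared within a line.

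**Figure D1:**
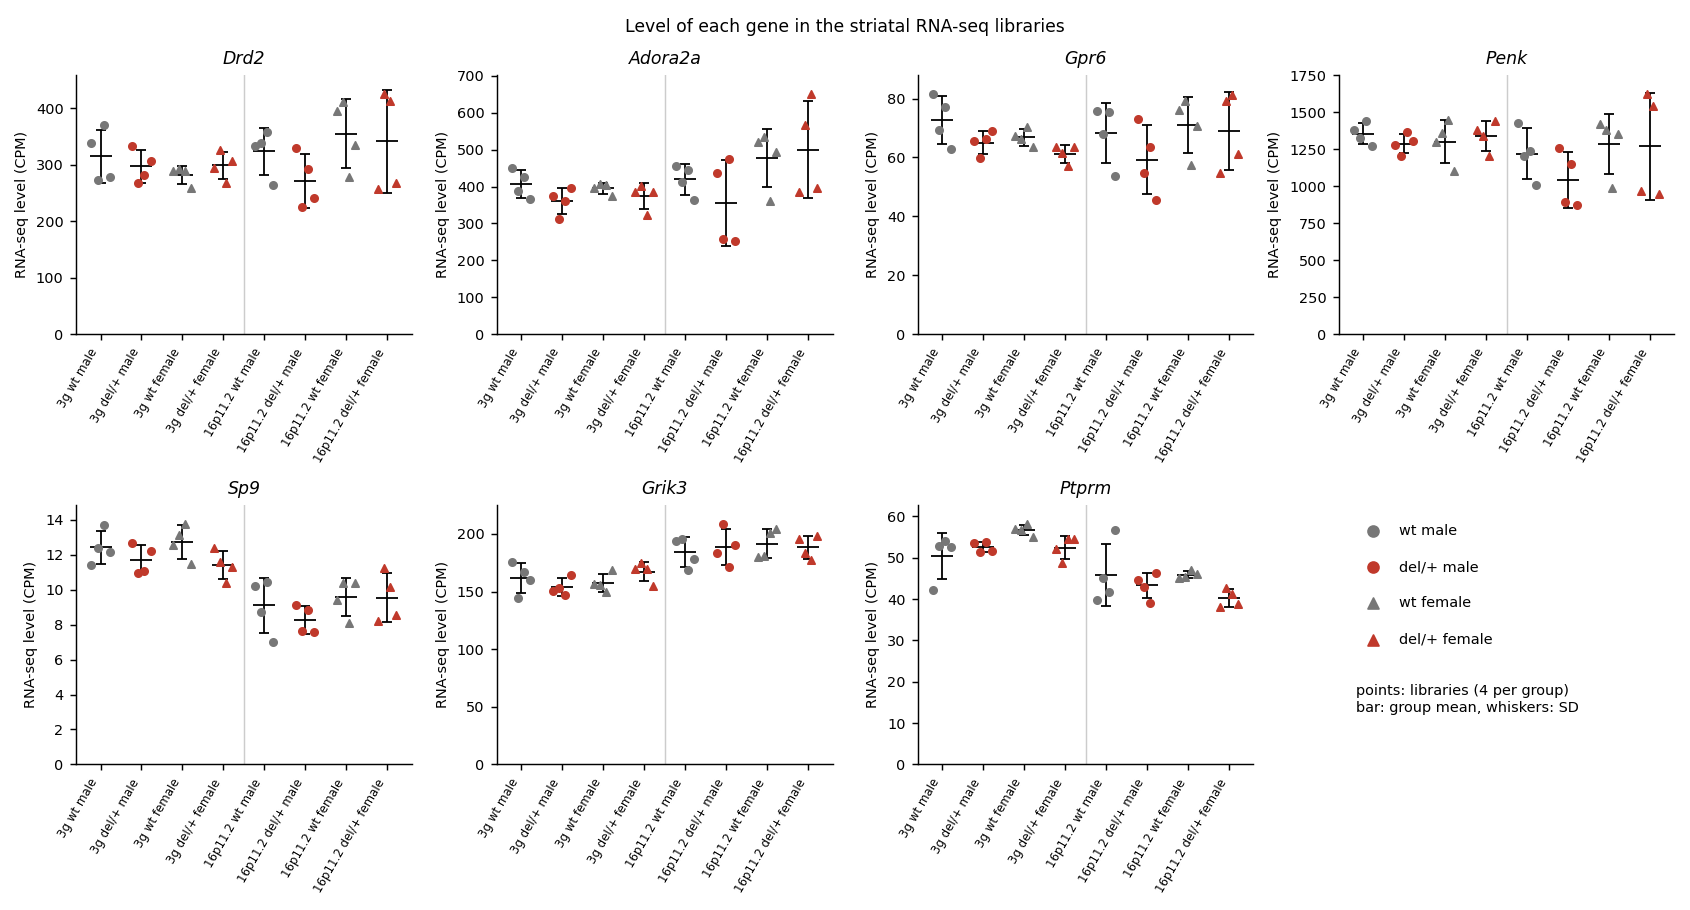
TMM-normalised CPM of the 7 members in each of the 32 RNA-seq libraries, with 1 panel per gene and an axis from 0; points are libraries, horizontal bars are means of the 4 libraries of a group and whiskers are the SD. Adora2a, Gpr6 and Penk have a larger SD in each 16p11.2 group than in any 3g group, and the females of Ptprm are the points where del/+ lies wholly below wt in both lines.

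The first question the design poses is whether either hemi-deletion changes the genes of this neuron type. By edgeR, after Benjamini-Hochberg adjustment over all genes tested, 0 of the 7 members passed an adjusted p of 0.05 in any of the 17 comparisons. Calls were rare among all genes too. In 3g they took up 0% of the genes tested in males and 0.00526% in females, and in 16p11.2 these shares were 0.106% and 0.144%. With both sexes of a line in 1 fit the share was 0.00517% in 3g and 0.18% in 16p11.2. At an unadjusted p under 0.05 edgeR had 2 members in 3g females, where 11% of all genes passed, and 1 in 16p11.2 females, where 4.47% did. It had 3 in 3g over both sexes (5.7% of all genes) and 1 in 3g footprints (7.97%). The comparison of females with males gave 1 in 3g (5.86%) and 1 in 16p11.2 (7.62%), and the other comparisons gave 0. DESeq2 also called 0 members at the adjusted threshold. P-values measure only the spread between these samples.

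Drd2, the Gi-coupled dopamine receptor that names this neuron type, was at 338, 272, 370.5 and 278 CPM in the 3g wt males and at 333, 267, 281 and 307 in the 3g del/+ males. The 3g wt females were at 289, 292, 289 and 259 CPM and the del/+ females at 293, 327, 268 and 307. The groups overlapped in both sexes, and the log2 fold change was -0.07 in males (95% interval -0.33 to 0.18, and -0.04 without the library labelled wt male 17) and 0.08 in females (-0.05 to 0.21). In the 16p11.2 line, wt males were at 334, 338, 358 and 264 CPM and del/+ males at 329, 225, 292 and 241, where all 4 del/+ libraries were below 3 of the 4 wt libraries. Drd2 was at -0.25 in these males (-0.56 to 0.06, adjusted p = 0.742, edgeR), at -0.20 without the library labelled del/+ male 4 and at -0.16 without del/+ male 2. The 16p11.2 females were at 396, 411, 279 and 335 CPM in wt and 258, 426, 414 and 268 in del/+, with a log2 fold change of -0.06 (-0.45 to 0.32), and here both the highest and the lowest library were del/+. Without the library labelled del/+ female 1, Drd2 was at 0.05, Adora2a at 0.16, Gpr6 at 0.05, Penk at 0.08 and Sp9 at 0.05 in these females.

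Adora2a, the Golf-coupled adenosine receptor that opposes the D2 receptor on the same cells, was at 451, 387, 425 and 367 CPM in 3g wt males and 375, 311, 360.1 and 395 in del/+ males. The 3g wt females were at 396, 408, 404 and 373 CPM and the del/+ females at 386, 402, 322 and 385. The del/+ means were lower in both sexes with overlapping libraries, at -0.17 in males (-0.38 to 0.04) and -0.08 in females (-0.22 to 0.05). The male value was -0.12 without the library labelled wt male 17 and -0.11 without del/+ male 27, and the female value was -0.02 without del/+ female 36. Over both sexes the value was -0.13 (-0.25 to -0.01, unadjusted p = 0.0386, adjusted p = 0.861, edgeR), in a fit where 5.7% of all genes had an unadjusted p under 0.05. Of the cortical markers, all 6 were below 0 in 3g males, with a median of -0.63, and all 6 above 0 in 3g females, with a median of 0.75. In males the library labelled wt male 17 lay 2.09 above its group mean for these markers (log2 CPM). Their median summed level was 201 CPM in wt and 202 in del/+ males, and 156 in wt and 464 in del/+ females. The part of the cortical markers in the values of Adora2a and Gpr6, which were below 0 in both sexes, was not tested. In 16p11.2 males wt libraries were at 455, 413, 446 and 363 CPM, and del/+ libraries split into 436 and 475 above and 258 and 252 below. This gave -0.23 with a wide interval (-0.68 to 0.22), and 1 of the low libraries was the one labelled del/+ male 4, without which the value was -0.10. The 16p11.2 females were at 0.06 (-0.32 to 0.44).

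Gpr6, an orphan receptor that raises cAMP without a ligand, was the member with the smallest unadjusted p in the 3g line. In 3g females wt libraries were at 67.3, 66.2, 70.4 and 63.5 CPM and del/+ libraries at 63.4, 61.3, 57.0 and 63.5, so the groups met at 63.5. The log2 fold change was -0.13 (standard error 0.0444, interval -0.22 to -0.03, unadjusted p = 0.0159, adjusted p = 0.354, edgeR), and 11% of all genes had an unadjusted p under 0.05 in this comparison. In 3g males wt libraries were at 81.6, 69.3, 77.1 and 63.0 CPM and del/+ libraries at 65.5, 59.9, 66.1 and 68.8, which overlap, at -0.15 (-0.35 to 0.04). Without the library labelled 3g wt male 17, which was the highest, the male value was -0.10. Over both sexes Gpr6 was at -0.14 (-0.24 to -0.04, unadjusted p = 0.0103, adjusted p = 0.851, edgeR). In the 16p11.2 line the values were -0.20 in males (-0.54 to 0.14) and -0.04 in females (-0.33 to 0.24), and the male value was -0.10 without the library labelled del/+ male 4. The test of the difference between the lines gave 0.02 (-0.24 to 0.28), and 0.09 without the 3 libraries that stood apart. That interval includes 0 and also differences larger than the 3g effect itself. In that test of genotype by line 0.131% of all genes and 0 members were called.

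Penk, the enkephalin precursor, was at 1382, 1327, 1441 and 1272 CPM in 3g wt males and 1277, 1205, 1364 and 1308 in del/+ males. The log2 fold change was -0.06 in these males (-0.23 to 0.10) and 0.04 in 3g females (-0.13 to 0.21). In 16p11.2 males wt libraries were at 1430.4, 1207, 1237 and 1010.4 CPM and del/+ libraries at 1257, 893, 1150.4 and 876, with the lowest 2 both del/+. The value was -0.22 in males (-0.55 to 0.11), -0.15 in them without the library labelled del/+ male 4 and -0.14 without wt male 1, and it was -0.02 in females (-0.43 to 0.38). Among 9 genes for enkephalin processing, breakdown and opioid receptors, 1 was called in any comparison. Oprk1, the kappa opioid receptor, whose main ligand is dynorphin rather than enkephalin, rose by 0.45 on the log2 scale in the 16p11.2 line over both sexes (standard error 0.0742, adjusted p = 0.00695, edgeR). Its wt males were at 23.8, 25.1, 23.4 and 26.6 CPM and its del/+ males at 34.9, 34.5, 42.2 and 36.4. The wt females were at 31, 32.2, 32.2 and 38.7 CPM and the del/+ females at 47.9, 38.2, 39.8 and 41.2, so the groups did not overlap in males and overlapped in females by 1 library of each genotype. The adjusted p of Oprk1 was 0.0444 (edgeR) without the libraries labelled del/+ male 4 and del/+ female 1, and 0.0800 with the replicate number as a block, the highest of 21 other settings. In the 3g line over both sexes Oprk1 was at -0.02 (adjusted p = 0.989, edgeR), with libraries between 27.0 and 51.8 CPM.

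Sp9, a zinc finger transcription factor needed for these neurons to form, had the lowest counts of the members in RNA-seq. In the 3g line its wt females were at 12.6, 13.1, 13.8 and 11.4 CPM and its del/+ females at 12.4, 11.6, 10.4 and 11.3. Of the del/+ females, 2 were below all wt females, and the value was -0.15 (-0.32 to 0.01, unadjusted p = 0.0581, adjusted p = 0.464, edgeR). Over both sexes of 3g it was -0.12 (unadjusted p = 0.0498, adjusted p = 0.864, edgeR), and the 16p11.2 line had -0.07 (-0.27 to 0.14). Of 16 other transcription factors of striatal neurons, 0 were called in any comparison, and their median log2 fold change over both sexes was -0.03 in 3g and -0.04 in 16p11.2.

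Grik3, the GluK3 subunit of kainate receptors, was the steadiest member. It lay between 144 and 175 CPM in 3g and between 169 and 208 CPM in 16p11.2, and its log2 fold changes in the 4 comparisons within a sex ran from -0.06 to 0.08. Over both sexes the value was 0.01 in each line, with intervals from -0.09 to 0.10 in 3g and from -0.11 to 0.12 in 16p11.2. Grik3 thus had the narrowest interval of the 7 members in both lines. Without the library labelled wt male 17 its value over both sexes of 3g was 0.03, and its 3g male value went from -0.06 to -0.03. Over both sexes of 16p11.2 it was -0.01 without the libraries labelled del/+ male 4 and del/+ female 1.

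Ptprm, a receptor-type tyrosine phosphatase that binds its own kind on neighbouring cells and is also made by endothelial cells, was the member whose females separated. In 16p11.2 females wt libraries were at 45, 45.4, 46.9 and 46.2 CPM and del/+ libraries at 38.0, 42.6, 41.3 and 38.8, with every del/+ library below every wt library. The log2 fold change was -0.20 (standard error 0.0592, interval -0.33 to -0.07, unadjusted p = 0.00704, adjusted p = 0.894, edgeR), and it was -0.17 without the library labelled del/+ female 1. In that comparison 4.47% of all genes had an unadjusted p under 0.05 and 2.74% had groups that did not overlap. In 3g females wt libraries were at 57.0, 56.7, 58.1 and 55.0 CPM and del/+ libraries at 52.1, 48.8, 54.6 and 54.5, again without overlap. The value was -0.12 (-0.21 to -0.02, unadjusted p = 0.0191, adjusted p = 0.368, edgeR), in a comparison where 5.52% of all genes had groups that did not overlap. Males did not separate. The 3g males were at 42.3, 52.9, 53.9 and 52.6 CPM in wt and between 51.3 and 53.7 in del/+, and the value of 0.07 became -0.02 without the library labelled wt male 17. The 16p11.2 males were at -0.08 (-0.35 to 0.19), and at -0.12 without the library labelled del/+ male 4. Endothelial marker genes moved beside Ptprm in the 16p11.2 females, where 4 of the 5 were below 0 with a median of -0.27, and none was at 0 counts. In 3g females 4 of the 5 were also below 0, with a median of -0.01. Their part in the result was not tested.

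**Figure D2:**
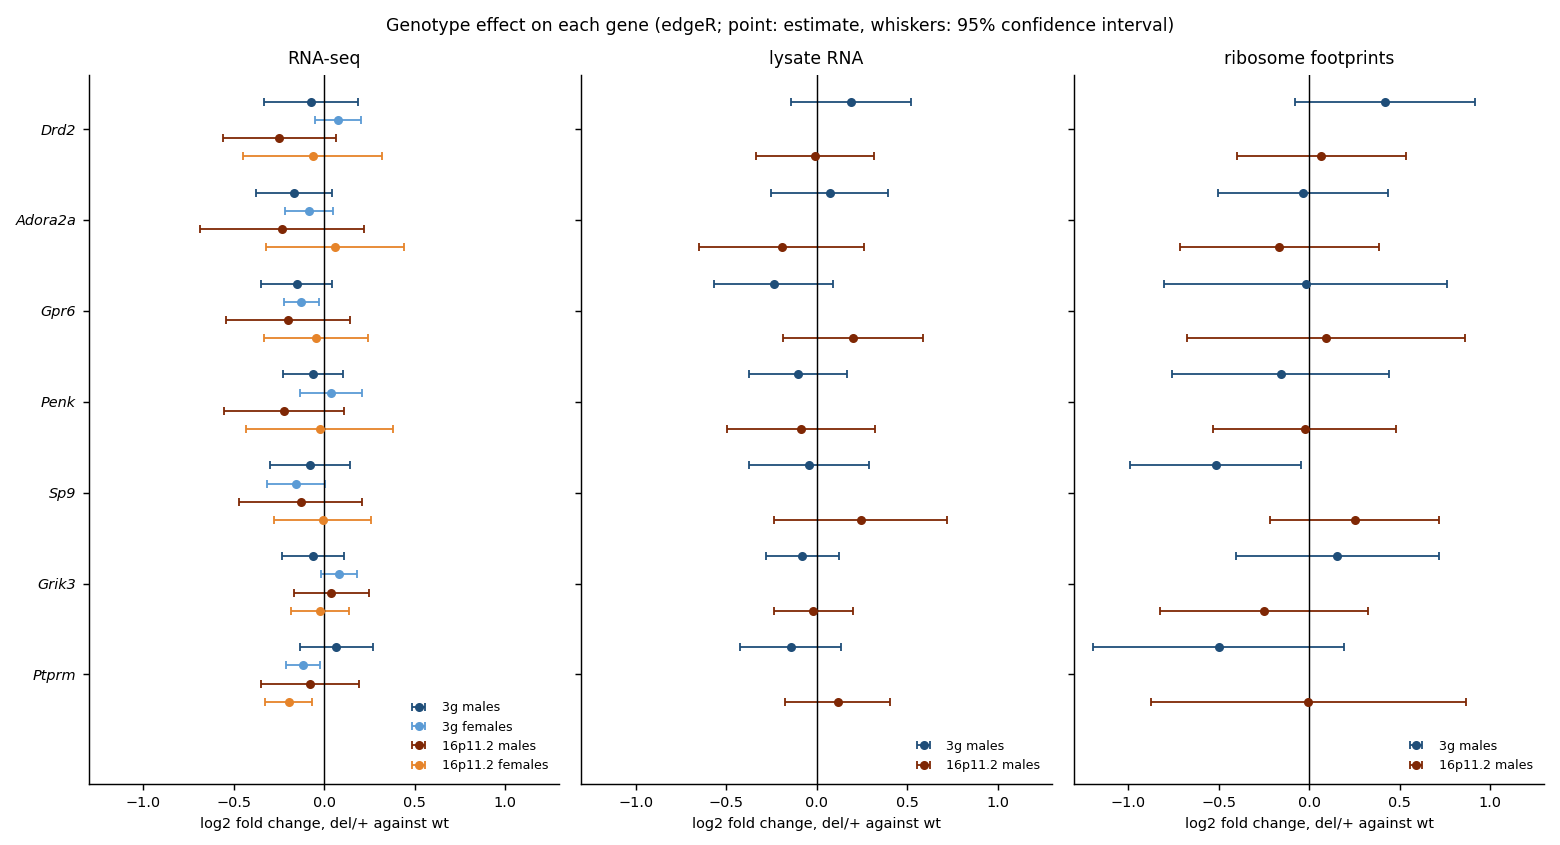
Log2 fold change of del/+ against wt for the 7 members, with RNA-seq (4 comparisons), lysate RNA and ribosome footprints (2 comparisons each) in separate panels; points are edgeR's estimates and whiskers their 95% intervals. Intervals of Ptprm in females of both lines, Gpr6 in 3g females and Sp9 in 3g footprints lie below 0, and 0 members pass the adjusted threshold.

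The study asks about effects that differ between the sexes, so these differences were tested themselves. In the interaction of genotype and sex, 0% of all genes and 0 of the 7 members were called in 3g, and the same counts held in 16p11.2, where the share was also 0%. The member nearest to a difference was Ptprm in 3g, with an interaction of -0.18 (-0.38 to 0.03, unadjusted p = 0.0877, adjusted p = 0.901, edgeR), female minus male, and -0.10 without the library labelled wt male 17. In 16p11.2 the members ran from -0.12 (Ptprm) to 0.30 (Adora2a, -0.32 to 0.92), and Adora2a was at 0.40 without the library labelled del/+ female 1 and at 0.18 without the library labelled del/+ male 4. Next, females were compared with males over both genotypes. In the 3g line 0.134% of all genes and 0 members were called. Gpr6 was lower in 3g females by a log2 fold change of -0.11 (unadjusted p = 0.0424, adjusted p = 0.841, edgeR), against 5.86% of all genes with an unadjusted p under 0.05. In the 16p11.2 line 0.00546% of all genes and 0 members were called, and 6 of the 7 members were higher in females, led by Adora2a at 0.33 (0.02 to 0.64, unadjusted p = 0.0382, adjusted p = 0.647, edgeR; 0.29 without the libraries labelled del/+ male 4 and del/+ female 1) and Drd2 at 0.22 (-0.03 to 0.48). An unadjusted p under 0.05 was seen for 7.62% of all genes there. All 10 genes shared by both projection neuron types were above 0 in the same test, with a median of 0.19, as were 6 of the 8 direct-pathway genes, with a median of 0.13, while all 6 cortical and all 5 endothelial markers were below 0, with medians of -0.08 and -0.41. All 6 oligodendrocyte markers were above 0, with a median of 0.16, and so were 4 of the 5 choroid plexus markers, with a median of 0.63. The part of these markers in the result was not tested.

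Whether the members differ from the genes of the direct pathway was read from the medians of both lists beside the median of all genes. In 16p11.2 males 6 of the 7 members were below 0, with a median log2 fold change of -0.20, against -0.10 for the 8 direct-pathway genes, -0.05 for the 10 genes of both neuron types and -0.01 for all genes tested. Lists of other cell types were also low in these males: the medians were -0.25 for endothelial markers (4 of 5 below 0), -0.24 for choroid plexus (4 of 4), -0.15 for oligodendrocytes (5 of 6), -0.15 for astrocytes (6 of 6) and -0.13 for microglia (5 of 6), and 0.00 for cortical markers (3 of 6). Without the library labelled del/+ male 4 the median of the members was -0.10, and the other medians were not taken without it. That library lay at -0.17 from its group mean for the members, in log2 CPM. It lay at -0.03 for the direct-pathway genes and -0.13 for the genes of both neuron types. In 3g males 6 of the 7 members were below 0, with a median of -0.07, against -0.01 for the direct-pathway genes. The medians of members and direct-pathway genes were -0.08 and -0.01 in 3g females and -0.03 and -0.04 in 16p11.2 females, where the median of the members was 0.05 without the library labelled del/+ female 1. Per library, the mean log2 CPM of the members less that of the direct-pathway genes was 1.325 to 1.332 in 16p11.2 del/+ females and 1.358 to 1.408 in wt females. In 16p11.2 males it was 1.123 to 1.360 in del/+ and 1.330 to 1.411 in wt, and the 3g groups also overlapped. These differences were not tested. Of the 18 genes that carry the cAMP signal of both receptors (Golf, adenylyl cyclase 5, phosphodiesterases, DARPP-32 and others), 0 were called in any comparison, and 15 of the 18 were below 0 in 16p11.2 over both sexes, with a median of -0.04. Of 19 relatives of the member receptors, 0 were called in any comparison. In 16p11.2 males the library labelled del/+ male 4 was low for most members, and without the libraries labelled del/+ male 4 and del/+ female 1 the values over both sexes of that line were -0.08 for Drd2, -0.03 for Penk, -0.02 for Gpr6, -0.02 for Sp9, -0.01 for Grik3 and 0.03 for Adora2a.

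Libraries within a group spread widely, above all in the 16p11.2 line, and they did so for several members at once. The SD of log2 CPM within groups was 0.28 for Drd2, 0.29 for Penk, 0.34 for Adora2a, 0.25 for Gpr6 and 0.19 for Sp9 in the 16p11.2 line, against 0.15, 0.11, 0.13, 0.10 and 0.10 in the 3g line. Grik3 (0.099 and 0.086) and Ptprm (0.13 and 0.094) had a more even spread. Drd2, Penk, Adora2a, Gpr6 and Sp9 rose and fell together: over 32 libraries, each as its deviation from the mean of its own group, the 10 pairs among them had r between 0.72 and 0.89. The range was 0.38 to 0.87 over the 16 libraries of 3g and 0.77 to 0.95 over the 16 of 16p11.2. Grik3 had r from -0.42 to -0.27 with these 5 (-0.67 to -0.38 within 16p11.2 and -0.33 to 0.32 within 3g), and Ptprm had r from -0.36 to -0.13. The points share the library, its depth and its normalisation, and the grouping of 5 and 2 genes was made after these values were seen.

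**Figure D3:**
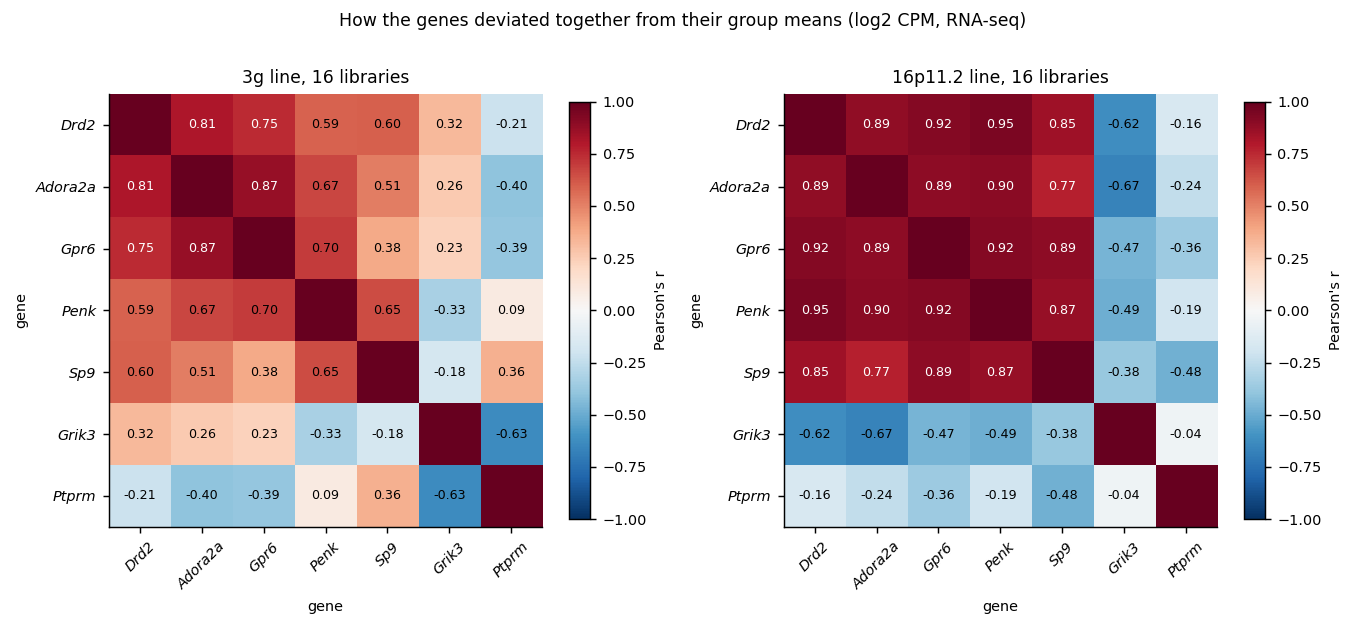
Pearson's r between each pair of members over 16 RNA-seq libraries per line (3g left, 16p11.2 right), from deviations of log2 CPM from the group mean; colour runs from -1 to 1. The block of Drd2, Adora2a, Gpr6, Penk and Sp9 is positive in both lines, with r from 0.38 in 3g and from 0.77 in 16p11.2, and Grik3 is negative with all 5 in 16p11.2 only, while its r in 3g runs from -0.33 to 0.32.

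The same 6 libraries of the 16p11.2 line were low for the mean of all 7 members: del/+ females 1 and 4 (at -0.23 and -0.18 from the group mean in log2 CPM), del/+ males 2 and 4 (-0.13 and -0.17), wt female 3 (-0.21) and wt male 4 (-0.16). They came from both genotypes and both sexes, and all 6 were also below their group mean for the direct-pathway genes, from -0.03 to -0.22. In 5 of the 6 the cortical projection neuron markers were above the group mean, by 0.15 to 0.51, and in del/+ male 4 they were at -0.07. Over the 16 libraries of 16p11.2 the mean of the members followed the direct-pathway list with r = 0.95 (rho = 0.95) and the cortical list with r = -0.77 (rho = -0.66). In 3g these were 0.35 and -0.17, and leaving out the 2 libraries farthest from the median gave 0.34 and -0.57. The list of genes of both projection neuron types had r = 0.95 with the members in 16p11.2 and 0.83 in 3g. For the cAMP signalling list these were 0.96 and 0.90. The cholinergic interneuron list had r = 0.89 with the members in 16p11.2 and 0.23 in 3g. Microglia had 0.43 and 0.14, and oligodendrocytes 0.43 and -0.28, in the same order. These are descriptions over libraries that share their dissection and depth, and the part of cortical tissue in the members' spread was not tested.

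**Figure D4:**
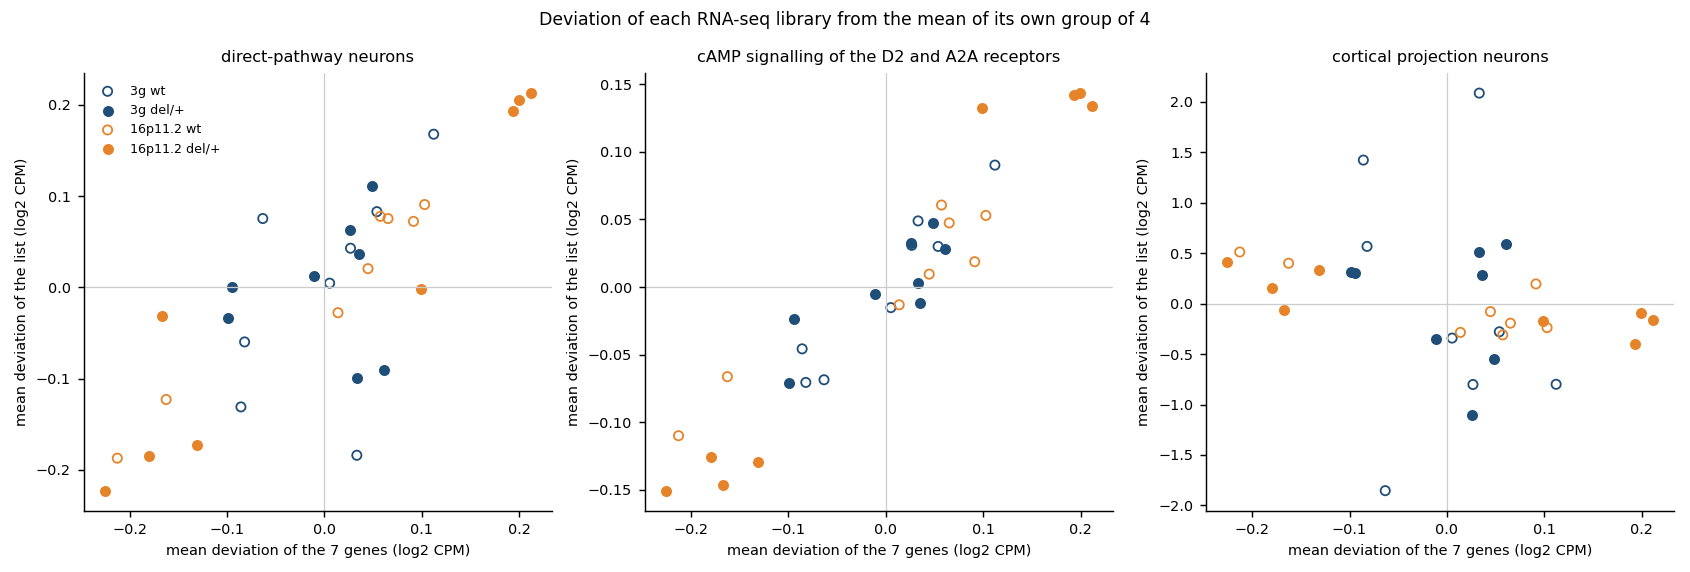
Mean deviation of a list from its group mean against that of the 7 members, both in log2 CPM, for direct-pathway genes, cAMP signalling genes and cortical projection neuron markers; each point is 1 of 32 RNA-seq libraries, coloured by line and filled for del/+. The 16p11.2 libraries run along a rising diagonal in the first panels and a falling one for the cortical markers, whose widest deviations belong to 3g wt libraries.

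The genes most like the mean of the members over the 32 libraries, among 20335 compared, included several of the cAMP pathway. Ppp1r1b, which encodes DARPP-32, had r = 0.97, Adcy5, the adenylyl cyclase on which D2 and A2A receptors converge, 0.94, Pde1b 0.94 and Gnal, the Golf alpha subunit, 0.92. Necab2 (0.94), Hpca (0.93), Tgfa (0.92) and Tesc (0.92) completed the first 8. Ppp1r1b and Adcy5 are also on the list of genes of both projection neuron types, so the likeness is not particular to cAMP signalling. Over the 32 libraries that list had r = 0.93 with the members and the cAMP signalling list 0.95. In all, 106 genes had r over 0.8 and 7 had r under -0.8. In the lysate RNA of 13 other males the same 8 genes had r between 0.67 and 0.93 with the members, the direct-pathway list 0.88 and the cortical list -0.87. The list of both projection neuron types had r = 0.95 there and the cAMP signalling list 0.93. Lists of other cell types also followed the members there: microglia at 0.89, cholinergic interneurons at 0.78 and oligodendrocytes at 0.57. Endothelial, choroid plexus and astrocyte markers were at 0.26, 0.15 and 0.01. The pairs among the 5 genes had a median r of 0.59 there, with a lowest of 0.21, and Grik3 had positive values of 0.17 to 0.70, unlike in RNA-seq.

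Lysate RNA and footprints address whether the RNA of these genes is translated differently in del/+ males. In lysate RNA, 0.0209% of all genes were called in 3g and 0.133% in 16p11.2, and 0 of the 7 members in either. The members ran from -0.24 (Gpr6, interval -0.57 to 0.09) to 0.19 (Drd2, -0.14 to 0.52) in 3g, and from -0.19 (Adora2a, -0.65 to 0.26) to 0.24 (Sp9, -0.24 to 0.72) in 16p11.2. With 1 animal left out, these 4 values ran from -0.39 to -0.08, from 0.01 to 0.38, from -0.42 to -0.07 and from 0.04 to 0.43, in this order. Grik3 in 3g was at 58.6, 57.7 and 59.0 CPM in wt and 51.6, 56.3 and 57.6 in del/+ lysates, which do not overlap but differ by only -0.08, and 9.65% of all genes had such groups.

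In footprints, 0.0132% of all genes were called in 3g and 0.117% in 16p11.2, and 0 members in either. Footprint counts of members were small, between 6 reads (Ptprm) and 844 reads (Penk) per library, and the intervals are wide. Sp9 was at 127, 108 and 139.7 CPM in 3g wt footprints and 94.9, 90.2 and 77.6 in del/+ footprints, with all del/+ animals lower. Its log2 fold change was -0.52 (-0.99 to -0.04, unadjusted p = 0.0340, adjusted p = 0.561, edgeR), among 7.97% of all genes with an unadjusted p under 0.05. Ptprm, on 15 to 25 reads per library, was also without overlap, at 38.3, 55.4 and 37.9 CPM in wt and 28.5, 32.2 and 32 in del/+ (-0.50, interval -1.19 to 0.19, and -0.31 without 1 of the wt animals). The 3g del/+ footprint libraries were also all deeper (527917 to 678130 counts) than the wt ones (342052 to 422918), and the part of depth was not tested. Groups without overlap were found for 13.1% of all genes in this comparison of 3 with 3 animals. In 16p11.2 footprints Sp9 was at 0.25 (-0.22 to 0.72; 0.05 to 0.43 with 1 animal left out), the opposite sign, and Ptprm at 0.00 (-0.87 to 0.87).

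Footprints per RNA set each animal's footprint CPM against the lysate RNA CPM of the same animal. Among 7619 genes, Sp9 and Penk stood near the top of this ratio. It rests on lysate RNA, whose levels differed from RNA-seq by gene. In wt lysate RNA of 3g and 16p11.2, Penk had means of 235 and 196 CPM, against 1355 and 1221 in wt male RNA-seq. Sp9 had 22.1 and 16.7, against 12.4 and 9.1, and Drd2 had 89.8 and 104, against 315 and 324. The part of these differences in the ratios was not tested. Sp9 had a log2 ratio of 2.83, 2.01 and 2.62 in the 3g wt animals and 3.10, 3.14, 3.34 and 2.46 in the 16p11.2 wt animals. Its means of 2.48 ± 0.426 (SD, n = 3) and 3.01 ± 0.381 (SD, n = 4) lie at percentiles 96.8 and 97.6 of all genes. Penk had 2.17, 2.50 and 1.76 in 3g and 1.73, 2.31, 2.14 and 2.26 in 16p11.2, with means at percentiles 94.9 and 95.2. The lowest percentile in any of the 13 animals, del/+ included, was 91.4 for Sp9 and 88.2 for Penk.

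The other members lay nearer the median of all genes, which was 0.41 in 3g and 0.37 in 16p11.2. In wt animals the mean log2 ratio was 1.15 and 1.19 for Gpr6, 0.89 and 0.98 for Adora2a, 1.3 and 0.77 for Ptprm, 0.43 and 0.71 for Drd2 and 0.39 and 0.76 for Grik3, in 3g and 16p11.2 in this order. In the 16p11.2 wt animals these 5 overlap one another. In the 3g wt animals Drd2 and Grik3 (at most 0.68 and 0.64) lay below all values of Adora2a (0.72 to 1.11) and Ptprm (0.91 to 1.66), with SDs of 0.20 to 0.61, and the order was not the same in 16p11.2. The median over the 7 members was 1.15 in 3g and 0.98 in 16p11.2, against 0.55 and 0.87 for the direct-pathway genes and -0.23 and -0.16 for genes of both neuron types. Footprint and RNA libraries differ in preparation, so a ratio is read only against other genes.

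**Figure D5:**
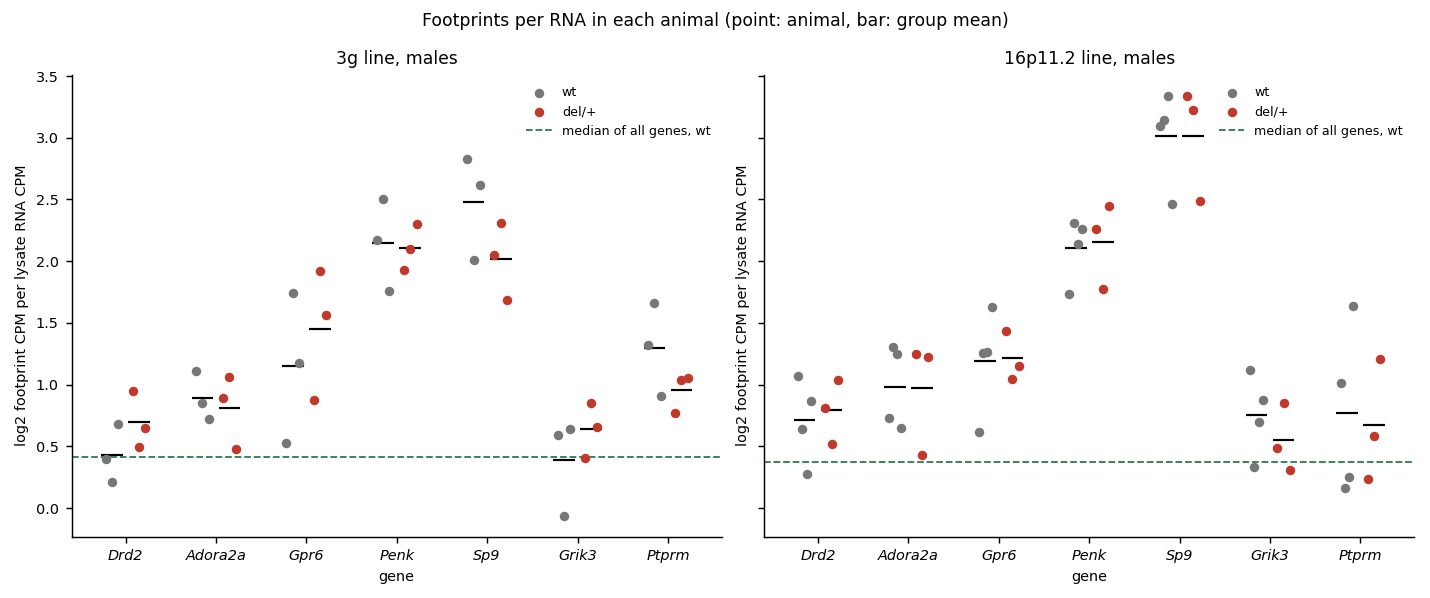
Log2 ratio of footprint CPM to lysate RNA CPM (0.5 CPM added to each) of the 7 members in each animal; points are animals, bars group means, and the dashed line is the median of all 7619 genes in wt. Group means of Sp9 and Penk lie above those of the other members in both lines, and del/+ and wt animals overlap for every member.

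In the interaction test of genotype and assay, 0 members were called in either line, against 0% of all genes in 3g and 0.017% in 16p11.2. Sp9 in 3g was nearest to a difference, with ratios of 2.05, 2.31 and 1.69 in del/+ animals and an interaction of -0.47 (-1.03 to 0.09, unadjusted p = 0.0967, adjusted p = 0.697, edgeR), which ran from -0.72 to -0.31 with 1 animal left out. In 16p11.2 the same value was 0.01 (-0.70 to 0.73). The intervals of the 7 members reached from -1.03 to 1.07 in 3g and from -1.03 to 0.86 in 16p11.2, and the widest belong to Gpr6 and Ptprm, the members with the fewest footprints.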

How the data were processed

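Counts per gene were used as deposited by the authors, without normalisation. Per the methods and the submitters' processing notes, RNA-seq reads were counted with HTSeq in bcbio-nextgen on mm10, and lysate RNA and footprint reads were aligned with Bowtie2 to mm39; versions and strand settings are not given in the sources used here. The methods state a ribosomal RNA depletion kit, and the labels' molecule entry is polyA RNA. Low counts were filtered (filterByExpr), TMM normalisation was applied and del/+ was compared with wt by glmQLFTest in edgeR 4.0.16 (R 4.3.3), with Benjamini-Hochberg adjustment over all genes and a threshold of 0.05; intervals are at 95%. The fit over both sexes had sex as a term, and footprints per RNA were compared by their interaction of genotype with assay. DESeq2 1.42.0 was an alternative. Ratios used 0.5 CPM added to each value. Likeness was measured on deviations of log2 CPM from the group mean. The steps were tested on simulated data. The members and lists were chosen with earlier results of these data known. The members were named in every comparison, of other lists the called genes, and the 8 genes most like the members. The lists held 8 direct-pathway genes, 10 of both pathways, 18 of cAMP signalling, 9 of enkephalin, 16 transcription factors, 19 receptor relatives, 6 neighbours and markers of other cell types; of all these 1 gene, Oprk1 of the enkephalin list, was called. No choroid plexus marker was tested in footprints, and no endothelial marker in 16p11.2 footprints. No 2 libraries held identical counts, and footprint and lysate depths are given in the report.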

Additional observations from a re-analysis of the deposited data

Results flagged for a closer look

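Among 70 groups of 4 libraries tested, 5 held a library far from the other 3 by Dixon's criterion, and chance flags about 1 in 20 groups. Penk was at 989 CPM in 16p11.2 wt female 3, against 1353 to 1421 in the other wt females; this library was also low for the mean of the members and of the direct-pathway genes. Drd2 was at 259 CPM in 3g wt female 39, against 289 to 292. Ptprm was at 42.3 CPM in 3g wt male 17, against 52.6 to 53.9, in the library that correlated better with the other line. In 1 of the 16p11.2 wt animals, Ptprm was at 18.9 CPM in lysate RNA, against 14.6 to 15.3, and Sp9 of the same animal at 183 CPM in footprints, against 118 to 125.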

How the results depend on the processing

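None of 263 other settings over the 17 comparisons called a member: DESeq2, RLE normalisation, all genes kept at low counts, 1 fit over the 16 libraries of a line, the replicate number or animal as a block, each library left out in turn, and, added after the data were seen, the libraries that stood apart left out. The lowest adjusted p of a member under any of these was 0.113, for Gpr6 in 3g females without wt female 39. The replicate number as a block called 0 members; replicate numbers did not pair the 16p11.2 libraries (correlations of deviations between -0.256 and 0.107). DESeq2 gave no adjusted p for 4 member results. Of 1837 fold changes, 149 changed sign, all near 0 against their intervals, and 134 of them on leaving out 1 library or animal; the cause was not tested. The range over libraries left out is given for each result in which a sign changed, on the log2 scale. In 3g males, Drd2 ran from -0.14 to 0.015 and Ptprm from -0.016 to 0.10. In 3g females, Penk ran from -0.032 to 0.097. In 16p11.2 males, Grik3 ran from -0.0085 to 0.080 and Ptprm from -0.14 to 0.042. In 16p11.2 females, Adora2a ran from -0.087 to 0.16, Drd2 from -0.18 to 0.045, Gpr6 from -0.13 to 0.051, Grik3 from -0.056 to 0.0075, Penk from -0.16 to 0.088 and Sp9 from -0.091 to 0.053. In 3g both sexes, Drd2 ran from -0.025 to 0.046, Grik3 from -0.0075 to 0.032 and Penk from -0.051 to 0.0076. In 16p11.2 both sexes, Grik3 ran from -0.017 to 0.032. In 3g female against male, Adora2a ran from -0.033 to 0.027, Penk from -0.027 to 0.033 and Sp9 from -0.027 to 0.018. In genotype by sex in 3g, Gpr6 ran from -0.025 to 0.096. In genotype by line, Adora2a ran from -0.038 to 0.12, Gpr6 from -0.025 to 0.077 and Grik3 from -0.026 to 0.017. In 3g lysate RNA, Adora2a ran from -0.14 to 0.23 and Sp9 from -0.19 to 0.11. In 3g footprints, Adora2a ran from -0.15 to 0.082, Gpr6 from -0.32 to 0.41, Grik3 from -0.053 to 0.30 and Penk from -0.43 to 0.13. In 3g footprints per RNA, Adora2a ran from -0.25 to 0.10 and Penk from -0.24 to 0.17. In 16p11.2 lysate RNA, Drd2 ran from -0.14 to 0.080, Grik3 from -0.057 to 0.051 and Penk from -0.27 to 0.098. In 16p11.2 footprints, Adora2a ran from -0.54 to 0.12, Drd2 from -0.11 to 0.24, Gpr6 from -0.059 to 0.39, Penk from -0.41 to 0.23 and Ptprm from -0.46 to 0.25. In 16p11.2 footprints per RNA, Adora2a ran from -0.13 to 0.22, Drd2 from -0.074 to 0.20, Gpr6 from -0.28 to 0.073, Penk from -0.15 to 0.23, Sp9 from -0.21 to 0.28 and Ptprm from -0.49 to 0.038. With DESeq2, Sp9 was 0.0021 (3g female against male) and Ptprm was 0.0076 (16p11.2 footprints). Without the libraries that stood apart, Adora2a was 0.031 (16p11.2 both sexes) and Grik3 was -0.011 (16p11.2 both sexes). Without the filter on low counts, Sp9 was 0.0017 (16p11.2 females), Drd2 was -0.0077 (3g both sexes), Adora2a was 0.0040 (3g female against male), Sp9 was 0.0015 (3g female against male), Grik3 was -0.00043 (16p11.2 both sexes), Grik3 was 0.0098 (genotype by line), Adora2a was 0.030 (3g footprints), Gpr6 was 0.039 (3g footprints), Adora2a was -0.023 (16p11.2 footprints per RNA), Penk was -0.0011 (16p11.2 footprints per RNA) and Sp9 was -0.034 (16p11.2 footprints per RNA). Other pseudocounts moved 0 of 28 footprint ratios by more than 1 SD, and CPM of total counts moved 10 of 56 group levels. Leaving out 1 library changed the number of all genes called in 3g females from 1 to as many as 175, and in 3g footprints from 1 to as many as 24, with 0 members among them. In the same way the number went from 1 to as many as 10 for 16p11.2 female against male, from 26 to as many as 63 for 3g female against male, from 3 to as many as 12 in 3g lysate RNA, from 0 to as many as 5 in 3g footprints per RNA, from 7 to between 2 and 13 in 16p11.2 footprints, from 19 to as few as 10 in 16p11.2 lysate RNA, from 1 to as many as 2 in both 3g over both sexes and 16p11.2 footprints per RNA, and from 0 to as many as 1 in 3g males. Of 75 member results with no change of sign on leaving out 1 library or animal, 60 moved by over 1.5 times in at least 1 case. Footprint depth limits Gpr6 and Ptprm most, on 7 to 38 and 6 to 25 reads.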
